A study of Mus musculus with 9 samples.

Results

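Interferon-stimulated genes are the genes that cells switch on after they sense an interferon. Of the 55341 genes counted in this mouse study, 40 were examined here as a group: the 40 symbols are a list of genes known to respond to interferon, all of them had a row in every library, and all 40 were among the 16250 genes with enough counts to be tested. The study asks what the loss of PCGF6, which belongs to a variant form of Polycomb repressive complex 1, changes in the adult intestinal epithelium. RNA was sequenced from isolated small intestinal crypts of male C57BL/6 mice aged 8 to 12 weeks. The 9 libraries form 4 groups. Villin KO (n = 2) are Pcgf6 knockout crypts from mice with Villin-CreERT2, a tamoxifen-inducible Cre recombinase whose promoter is active in intestinal epithelial cells, and Villin WT (n = 3) are the tamoxifen-treated Pcgf6 wild-type crypts of that line. AhCre KO (n = 2) are knockout crypts from mice with AhCre, a Cre recombinase whose promoter responds to beta-naphthoflavone (BNF), and AhCre WT (n = 2) are the BNF-treated wild-type crypts of that line. All mice therefore received an inducer, and no untreated group was analysed here. The labels disagree on the time since induction, which is 15 days in the titles and 7 days elsewhere, and they do not say whether the libraries of a group came from separate mice, so each p-value speaks only of the spread among these libraries, which may be technical.

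Interferons bind receptors that activate JAK kinases, which phosphorylate STAT proteins. Type I and type III interferons act through a complex of STAT proteins and IRF9 that binds the interferon-stimulated response element in promoters, and type II interferon acts mainly through gamma-activated sites. In the intestine, epithelial cells respond strongly to type III interferon, and the response is known there for its defence against enteric viruses. The 40 genes comprise 4 sensors of foreign nucleic acid, 5 signalling and transcription factors, the ISG15 modifier with its protease, 18 antiviral effectors, 7 interferon-inducible GTPases and 4 genes of antigen processing and presentation.

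The response element is a direct feature that many of these genes share, so the stretches that hold it are shown for 8 of the members described below. RefSeq promoter windows on GRCm38.p6, which run from 250 bases before to 50 bases after the start of each gene, were found for 29 of the 40 members. The letters GAAANNGAA, searched on both strands, were in the windows of 17 of those 29 members (58.6%), against 9.76% of 27025 genes. Each line gives 80 bases, 5′ to 3′ on the strand of the gene, with the matches in capitals.
Isg15: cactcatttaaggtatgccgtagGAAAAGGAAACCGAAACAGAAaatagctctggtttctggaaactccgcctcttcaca
Ifit1: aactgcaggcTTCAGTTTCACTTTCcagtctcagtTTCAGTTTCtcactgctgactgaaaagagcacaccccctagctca
Ifit3: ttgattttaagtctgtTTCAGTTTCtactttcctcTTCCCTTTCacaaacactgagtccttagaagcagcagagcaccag
Rsad2: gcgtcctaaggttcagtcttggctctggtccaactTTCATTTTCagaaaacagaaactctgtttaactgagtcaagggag
Trim30a, first start: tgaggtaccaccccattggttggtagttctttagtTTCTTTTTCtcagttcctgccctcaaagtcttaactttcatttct
Trim30a, second start: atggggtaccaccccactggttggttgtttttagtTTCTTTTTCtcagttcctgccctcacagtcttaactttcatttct
Gbp2: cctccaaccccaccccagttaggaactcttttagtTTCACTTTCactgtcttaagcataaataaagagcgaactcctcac
Igtp: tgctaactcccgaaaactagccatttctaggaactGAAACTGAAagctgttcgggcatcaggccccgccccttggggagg
B2m: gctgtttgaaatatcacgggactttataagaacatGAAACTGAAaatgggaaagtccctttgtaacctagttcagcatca

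These stretches lie at chr4:156200840-156200919 on the minus strand for Isg15, chr19:34640770-34640849 on the plus strand for Ifit1 and chr19:34583392-34583471 on the plus strand for Ifit3. Rsad2 is at chr12:26456527-26456606 on the minus strand, the Trim30a stretches are at chr7:104465184-104465263 and chr7:104446078-104446157 on the minus strand, and Gbp2 is at chr3:142620570-142620649 on the plus strand. Igtp is at chr11:58199487-58199566 and B2m at chr2:122147513-122147592, both on the plus strand. The windows of Isg15, Ifit1 and Ifit3 hold 3 matches each, of which 2 of Ifit3 lie in the stretch shown. Matches overlap one another in Isg15, as do 2 of those in Ifit1. The gamma-activated site TTCNNNGAA was in the windows of 7 members (24.1%), namely Irf1, Ifit2, Oas1a, Bst2, Gbp7, Igtp and Psmb8, against 9.55% of all genes; 4 members held both motifs, in 1 of them at overlapping bases. The E-box CACGTG, a site of the MGA and MAX partners of PCGF6, was in none of the 29 members' windows, against 8.09% of all genes. The E2F site GCGGGAA was in 1 member's window (3.45%), against 5.29%. A match is a run of letters in a window and does not show binding.

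Total counts were 7146764 and 8339149 in Villin KO, 6455098 to 7013456 in Villin WT, 9263993 and 10179884 in AhCre KO, and 10645569 and 12377921 in AhCre WT. A floor of 3 counts stands for 0.194 to 0.615 CPM, a count scaled to the size of its library, depending on the library. Pcgf6 itself, the deleted gene, had 3.07 and 2.47 CPM in Villin KO and 9.44 to 12.7 CPM in Villin WT, with a log2 fold change of -1.99 (adjusted p = 0.0220, edgeR quasi-likelihood test with Benjamini-Hochberg adjustment). It had 7.20 and 5.90 CPM in AhCre KO and 14.1 and 10.1 CPM in AhCre WT, with a log2 fold change of -0.89 that did not pass the test. None of 9 markers of crypt epithelium was at 0 in any library, and their summed level was 7006 to 13986 CPM. They did not move together: Lgr5, a marker of crypt base stem cells, and Mki67, a marker of dividing cells, fell in Villin KO (log2 fold change -1.40 and -2.16, edgeR adjusted p = 0.0380 and 0.0131), while Epcam, Krt8 and Vil1 had log2 fold changes of 0.63 to 0.80 and did not pass. The Villin replicates differed from one another more than the AhCre replicates did, with a chi-square over genes, per degree of freedom, of 43.3 to 63.6 in Villin pairs, 10.8 in AhCre KO and 6.48 in AhCre WT.

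As a group, the 40 genes lay higher in Villin KO than in Villin WT and lower in AhCre KO than in AhCre WT. The mean log2 CPM over the 40 genes was 5.56 and 4.91 in Villin KO, against 4.49, 4.07 and 5.20 in Villin WT, a difference of 0.65. It was 3.33 and 3.45 in AhCre KO, against 3.85 and 3.71 in AhCre WT, a difference of -0.39. The Villin groups overlapped, because the third Villin WT library lay above the second Villin KO library, whereas the AhCre groups did not overlap. Between the wild-type groups the mean was 0.80 log2 units lower in AhCre WT than in Villin WT, again without overlap. No test was made on these means. Scaling by plain total counts gave 0.34 for the Villin difference and -0.36 for the wild-type difference, so both sizes depended on the scaling. The means above use totals multiplied by a TMM factor, which corrects for library composition. That factor was 0.684 and 0.779 for the Villin KO libraries and 0.854, 1.12 and 0.806 for those of Villin WT. It was 1.22 to 1.27 for AhCre. Each Villin library had 22058 to 29750 genes detected, and each AhCre library 33791 to 38835. Of total counts, the 40 genes took 0.518% and 0.416% in the Villin KO libraries. The Villin WT libraries had 0.535%, 0.338% and 0.486%.

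**Figure D1:**
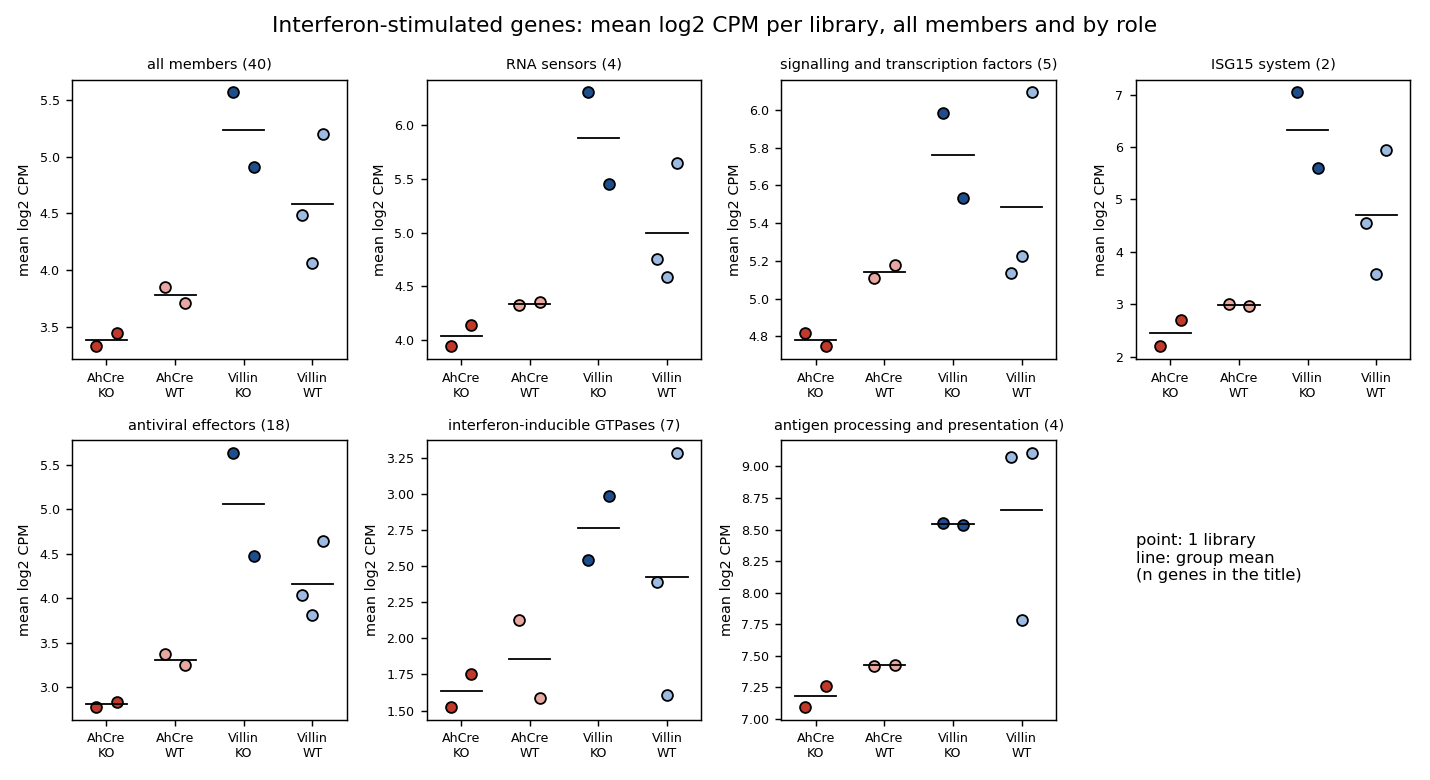
Mean log2 CPM per library over all 40 genes and over each role, with points for single libraries and a line at the mean of each group (AhCre KO, AhCre WT and Villin KO n = 2, Villin WT n = 3). Over all 40 genes both AhCre KO libraries (3.33 and 3.45) lie under both AhCre WT libraries, while the Villin WT libraries spread between 4.07 and 5.20.

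The Villin difference of the group means was largest for the sensors, effectors and ISG15 genes. In each of the 6 roles, however, the third Villin WT library lay above the second Villin KO library. Their mean log2 CPM, in that order, was 5.64 and 5.46 for the sensors and 4.64 and 4.48 for the effectors. For the ISG15 genes it was 5.95 and 5.60. The mean log2 CPM in Villin KO minus that in Villin WT was 0.89 for the sensors, 0.28 for the signalling and transcription factors, 1.63 for the ISG15 genes and 0.89 for the effectors. It was 0.33 for the GTPases and -0.11 for the antigen processing genes. In AhCre KO minus AhCre WT the 6 roles all lay under 0, with values of -0.22 (GTPases) to -0.54 (ISG15 genes).

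Gene by gene, 2 of the 40 members passed the test in Villin KO against Villin WT, both higher, and 38 did not pass. This is 5% of the members, next to 6.21% of all tested genes called in either direction and 3.33% called higher, so the share of calls was near the background. The direction was less evenly spread: 30 of the 40 members had a log2 fold change above 0, against 41.4% of all genes, and the median over the members was 0.68, against -0.18 over all genes. At an unadjusted p under 0.05, 14 members were higher, against 10.7% of all genes, and 1 was lower, against 15.4%. Both Villin KO libraries exceeded all 3 Villin WT libraries for 15 members (37.5%), next to 14.5% of all genes, and lay under all 3 for 1 member, next to 19.8%. The 40 members were chosen with earlier results of these data known, and they are not independent replicates. The shares of members set against all genes, here and below, are therefore descriptions and not tests.

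Usp18 and Oasl1 are the members that rose. Usp18 (ENSMUSG00000030107.10, GRCm38 chr6:121245906-121270917) encodes the protease that removes ISG15 from proteins and dampens signalling from the type I receptor. It had 136 and 39.0 CPM in Villin KO, against 14.0, 6.93 and 32.9 CPM in Villin WT. Its log2 fold change was 2.29 ± 0.59 (SE, adjusted p = 0.0420, edgeR quasi-likelihood test with Benjamini-Hochberg adjustment). Both knockout libraries were above all wild-type libraries, although the second knockout library was close to the third wild-type library. Without the first Villin KO library its log2 fold change was 1.15 (edgeR adjusted p = 0.311).

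Oasl1 (ENSMUSG00000041827.15, GRCm38 chr5:114923240-114937915) encodes a protein like the oligoadenylate synthetases that is known in mice to restrain translation of Irf7 mRNA. It had 343 and 134 CPM in Villin KO, against 51.6, 42.5 and 67.6 CPM in Villin WT. The log2 fold change was 2.15 ± 0.38 (SE, edgeR adjusted p = 0.0131), and the groups were well apart. Without the first Villin KO library it was 1.34 (edgeR adjusted p = 0.0864). In AhCre crypts neither gene separated the genotypes: Usp18 had 5.34 and 7.37 CPM in AhCre KO and 6.07 and 5.52 CPM in AhCre WT. Oasl1 had 27.0 and 20.2 CPM in AhCre KO and 22.3 and 25.4 CPM in AhCre WT.

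The first Villin KO library set much of the Villin pattern. It was the highest of all 9 libraries for 25 of the 40 members, and it exceeded the second Villin KO library for 33. The third Villin WT library was the highest for another 10 members and lay above the second Villin KO library for 20. The second Villin WT library was the lowest of the 5 Villin libraries for 21 members. These orders of libraries were counted for the members only, so it is not known whether all genes show the same. The number of members called in Villin KO was 0 without the first Villin KO library, 13 without the second, 0 without the first Villin WT library, 1 without the second and 12 without the third. In these 5 fits 73, 1949, 144, 745 and 1407 of all genes were called, in the same order, so the calls of all genes moved too. The number of members was 1 without any single AhCre library, with 343 to 356 of all genes.

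In AhCre KO against AhCre WT none of the 40 members passed the edgeR test, and 1 of all 16250 genes did (0.00615%). At an unadjusted p under 0.05, 2 members were lower and 0 higher, against 1.72% and 1.81% of all genes. Only 6 members had a log2 fold change above 0, against 49.5% of all genes, and the median was -0.42 over the members and -0.0048 over all genes. Both AhCre KO libraries lay under both AhCre WT libraries for 25 members (62.5%), next to 25.1% of all genes, and above both for 2 members (Oas2 and Gbp2), next to 23.4%. A fit of the AhCre libraries alone, which takes the spread from those 4 libraries only, called 9 members, of which 8 were lower (Irf7, Isg15, Ifit1, Oas3, Oasl2, Trim30a, Rtp4 and Lgals3bp) and Gbp2 was higher; it called 1046 of 16257 genes in all. DESeq2 called 0 members and 74 of all genes, and limma-voom called 3 members and 911 of all genes.

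The opposite directions were then set against each other. For 11 members the Villin KO libraries were all above Villin WT while the AhCre KO libraries were all under AhCre WT, which is 27.5% of the members and 5.03% of all genes. The reverse pattern held for 0 members and 4.65% of all genes. No member had all knockout libraries above wild type in both drivers, against 3.42% of all genes. The test of the difference of the knockout effects, Villin minus AhCre, called none of the 40 members and 12 of all genes (0.0738%, of which 0.0677% with a positive and 0.00615% with a negative difference). At an unadjusted p under 0.05 it gave 15 members with a positive difference, against 6.32% of all genes, and 0 with a negative one, against 9.55%. The difference was above 0 for 34 members, against 42.9% of all genes, and its median was 1.09 over the members, against -0.18 over all genes. Averaged over both drivers, no member was called, next to 1.17% of all genes (0.972% higher and 0.197% lower). On that average 4 members were higher and 1 was lower at an unadjusted p under 0.05, against 5.37% and 8.49% of all genes, and 23 members were above 0, against 40.9%. DESeq2 called 7 members for the difference and 1 for the average, and limma-voom called 0 for both. Of all 16250 genes DESeq2 called 380 for the difference and 438 for the average, and limma-voom called 144 and 266.

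**Figure D2:**
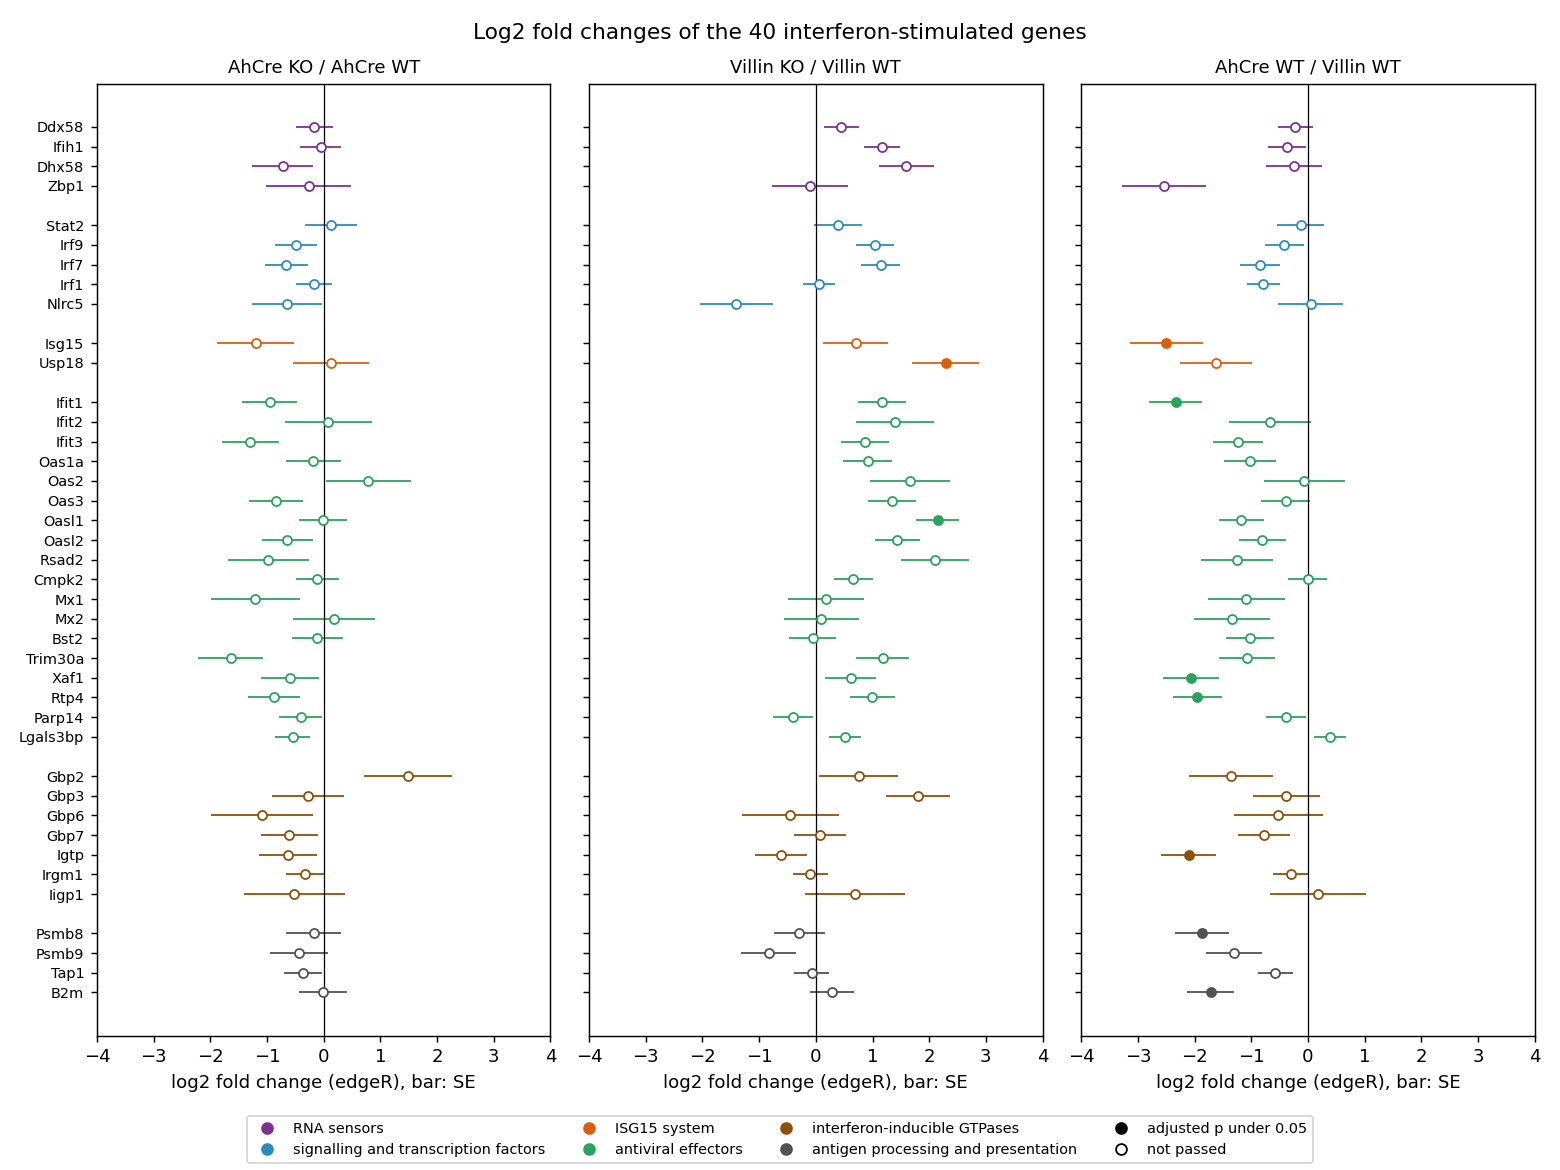
Log2 fold change of each of the 40 genes (edgeR, all 9 libraries in the fit) in AhCre KO over AhCre WT, Villin KO over Villin WT and AhCre WT over Villin WT; bars are the standard error, colours the roles, and filled points passed the test. In AhCre KO 34 of 40 points lie under 0 with none filled, in Villin KO 30 lie above 0 with 2 filled, and between the wild-type groups 36 lie under 0 with 7 filled.

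Among the sensors, Ddx58 encodes RIG-I and Ifih1 encodes MDA5, which detect viral RNA in the cytosol, and Dhx58 encodes LGP2, a regulator of both. Ddx58 had a log2 fold change of 0.45 in Villin KO and -0.16 in AhCre KO. Ifih1 had 175 and 130.5 CPM in Villin KO and 42.8 to 88.6 CPM in Villin WT, and Dhx58 had 31.3 and 10.8 CPM in Villin KO and 4.85 to 9.44 CPM in Villin WT. Neither Ifih1 nor Dhx58 passed the test (edgeR adjusted p = 0.0528 and 0.0662), though the groups did not overlap. Dhx58 had 2.75 and 4.34 CPM in AhCre KO and 5.42 and 6.26 CPM in AhCre WT. Zbp1, a sensor of Z-form nucleic acid, overlapped between the genotypes in Villin crypts: it had 106 and 61.1 CPM in Villin KO, against 76.2, 14.4 and 178 CPM in Villin WT. It had 12.2 and 13.2 CPM in AhCre KO and 15.3 CPM in each AhCre WT library.

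Stat2 and Irf9 encode subunits of the factor that binds the response element, and Irf7 is the factor that amplifies type I interferon production. Irf7 had 339 and 160.0 CPM in Villin KO, against 101, 95.3 and 142 CPM in Villin WT (log2 fold change 1.14 ± 0.34 SE, edgeR adjusted p = 0.0646). It had 39.0 and 40.4 CPM in AhCre KO, against 59.1 and 66.4 CPM in AhCre WT. Irf9 showed the same order of groups, with 112 and 64.3 CPM in Villin KO, 31.1 to 57.4 CPM in Villin WT, 22.3 and 23.3 CPM in AhCre KO, and 33.5 and 30.7 CPM in AhCre WT. Stat2 overlapped between genotypes in both drivers, at 59.8 and 27.3 CPM in Villin KO and 21.6 to 51.4 CPM in Villin WT.

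Nlrc5, the transactivator of MHC class I genes, was the only member with all knockout libraries under wild type in both drivers, a pattern found in 4.12% of all genes. It had 1.43 and 2.93 CPM in Villin KO, against 3.24, 3.21 and 11.4 CPM in Villin WT. It had 4.20 and 3.56 CPM in AhCre KO, against 5.88 and 6.26 CPM in AhCre WT. Its log2 fold changes were -1.40 ± 0.64 in Villin KO (SE, edgeR adjusted p = 0.189) and -0.64 ± 0.62 in AhCre KO, and neither passed. Irf1, a factor induced mainly by interferon gamma, had 272 and 238 CPM in Villin KO and 207 to 302 CPM in Villin WT.

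Isg15 encodes the ubiquitin-like modifier that is among the most strongly induced products of the response. It had 127 and 59.9 CPM in Villin KO, against 38.1, 19.9 and 115 CPM in Villin WT. It had 3.56 and 5.29 CPM in AhCre KO, against 10.01 and 10.4 CPM in AhCre WT. In Villin crypts the third wild-type library reached nearly the level of the first knockout library, and in AhCre crypts both knockout libraries were lower (log2 fold change -1.20 ± 0.67 SE, edgeR adjusted p = 1).

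Of the 18 effectors, 16 had a log2 fold change above 0 in Villin KO and 15 under 0 in AhCre KO. Rsad2 encodes viperin, an enzyme that makes a chain-terminating nucleotide. It had 48.3 and 12.8 CPM in Villin KO, against 5.93, 2.95 and 12.7 CPM in Villin WT, and 1.46 and 1.56 CPM in AhCre KO, against 2.97 and 2.98 CPM in AhCre WT. Its log2 fold change in Villin KO was 2.10 ± 0.60 (SE, edgeR adjusted p = 0.0568), and the second knockout library was level with the third wild-type library. Its neighbour Cmpk2, a mitochondrial nucleotide kinase, had 77.4 and 53.7 CPM in Villin KO and 25.2 to 52.0 CPM in Villin WT.

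Trim30a, a tripartite-motif protein of the mouse response, had the lowest log2 fold change in AhCre KO, -1.64 ± 0.57 (SE, edgeR adjusted p = 0.996). It had 1.46 and 0.867 CPM in AhCre KO, against 3.16 and 4.18 CPM in AhCre WT. In Villin KO it had 20.1 and 15.0 CPM, against 5.39, 5.003 and 12.9 CPM in Villin WT. The genotypes did not overlap in either driver and lay in opposite orders. Its difference between the drivers was 2.82 ± 0.74 log2 units (SE, edgeR adjusted p = 0.146), the smallest adjusted p of the 40 members in that test.

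The Ifit genes encode proteins that bind viral RNA ends. Ifit1 had 177 and 73.9 CPM in Villin KO, against 39.9, 41.3 and 86.5 CPM in Villin WT, and 5.26 and 6.16 CPM in AhCre KO, against 12.6 and 9.55 CPM in AhCre WT. Ifit3 had 20.3 and 11.3 CPM in Villin KO, against 9.17, 7.83 and 8.86 CPM in Villin WT, and 0.970 and 1.99 CPM in AhCre KO, against 4.07 and 3.21 CPM in AhCre WT. Ifit3 separated the genotypes in both drivers in opposite orders, whereas Ifit1 overlapped in Villin crypts and not in AhCre crypts. Of the 50-base stretches of Ifit3 transcripts, 51.2% also occur in other genes, mainly the copy Ifit3b, so its counts depend on how shared reads were assigned.

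The oligoadenylate synthetases make the second messenger that activates RNase L. Oas3 had 73.8 and 31.3 CPM in Villin KO and 16.2 to 29.7 CPM in Villin WT, and 10.8 and 6.85 CPM in AhCre KO and 13.6 and 17.9 CPM in AhCre WT. Oasl2 had 179.9 and 80.7 CPM in Villin KO and 28.2 to 70.5 CPM in Villin WT, and 17.5 and 17.8 CPM in AhCre KO and 27.4 and 27.7 CPM in AhCre WT. Both had their genotypes apart in opposite orders. Oas2 was above wild type in both AhCre KO libraries, with 4.53 and 3.56 CPM, against 2.58 and 2.09 CPM in AhCre WT. It had 13.5 and 2.16 CPM in Villin KO, against 1.08, 3.98 and 2.12 CPM in Villin WT, so that the first knockout library alone stood high. Oas1a shares 57.6% of its 50-base stretches with other genes, mainly Oas1g.

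Mx1 and Mx2 belong to a family of GTPases that trap viral ribonucleoproteins. The gene models list Mx2 as a polymorphic pseudogene, a gene whose coding sequence is broken in some individuals. Whether either gene makes a working protein in these mice was not tested. Both genes rested on few reads, at 2 to 24 counts per library for Mx1 and 7 to 22 for Mx2. Mx1 had 4.30 and 1.54 CPM in Villin KO, against 2.88, 1.92 and 2.89 CPM in Villin WT, and 0.162 and 0.867 CPM in AhCre KO, against 1.55 and 0.820 CPM in AhCre WT. Mx2 had 4.51 and 1.08 CPM in Villin KO, against 2.696, 1.41 and 3.66 CPM in Villin WT, and 0.889 and 1.39 CPM in AhCre KO, against 1.10 and 0.895 CPM in AhCre WT. The genotypes overlapped for both genes in both drivers.

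Rtp4, a chaperone-like protein that limits flavivirus replication, had 112 and 54.9 CPM in Villin KO, against 51.9, 23.5 and 50.1 CPM in Villin WT. It had 5.98 and 5.72 CPM in AhCre KO, against 11.8 and 9.77 CPM in AhCre WT. Xaf1, a protein linked to cell death, had 54.7 and 32.4 CPM in Villin KO, against 40.3, 12.2 and 32.9 CPM in Villin WT, and 3.80 and 5.20 CPM in AhCre KO, against 7.10 and 6.49 CPM in AhCre WT. Rtp4 was apart in both drivers, again in opposite orders, and Xaf1 in AhCre only. Lgals3bp, a secreted glycoprotein, had 309 and 211 CPM in Villin KO, against 166, 189.6 and 189 CPM in Villin WT, and 165 and 159 CPM in AhCre KO, against 221 and 253 CPM in AhCre WT. The remaining effectors Ifit2, Oas1a, Bst2 and Parp14 overlapped between genotypes in Villin crypts, with log2 fold changes of -0.41 (Parp14) to 1.40 (Ifit2), none of which passed.

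**Figure D3:**
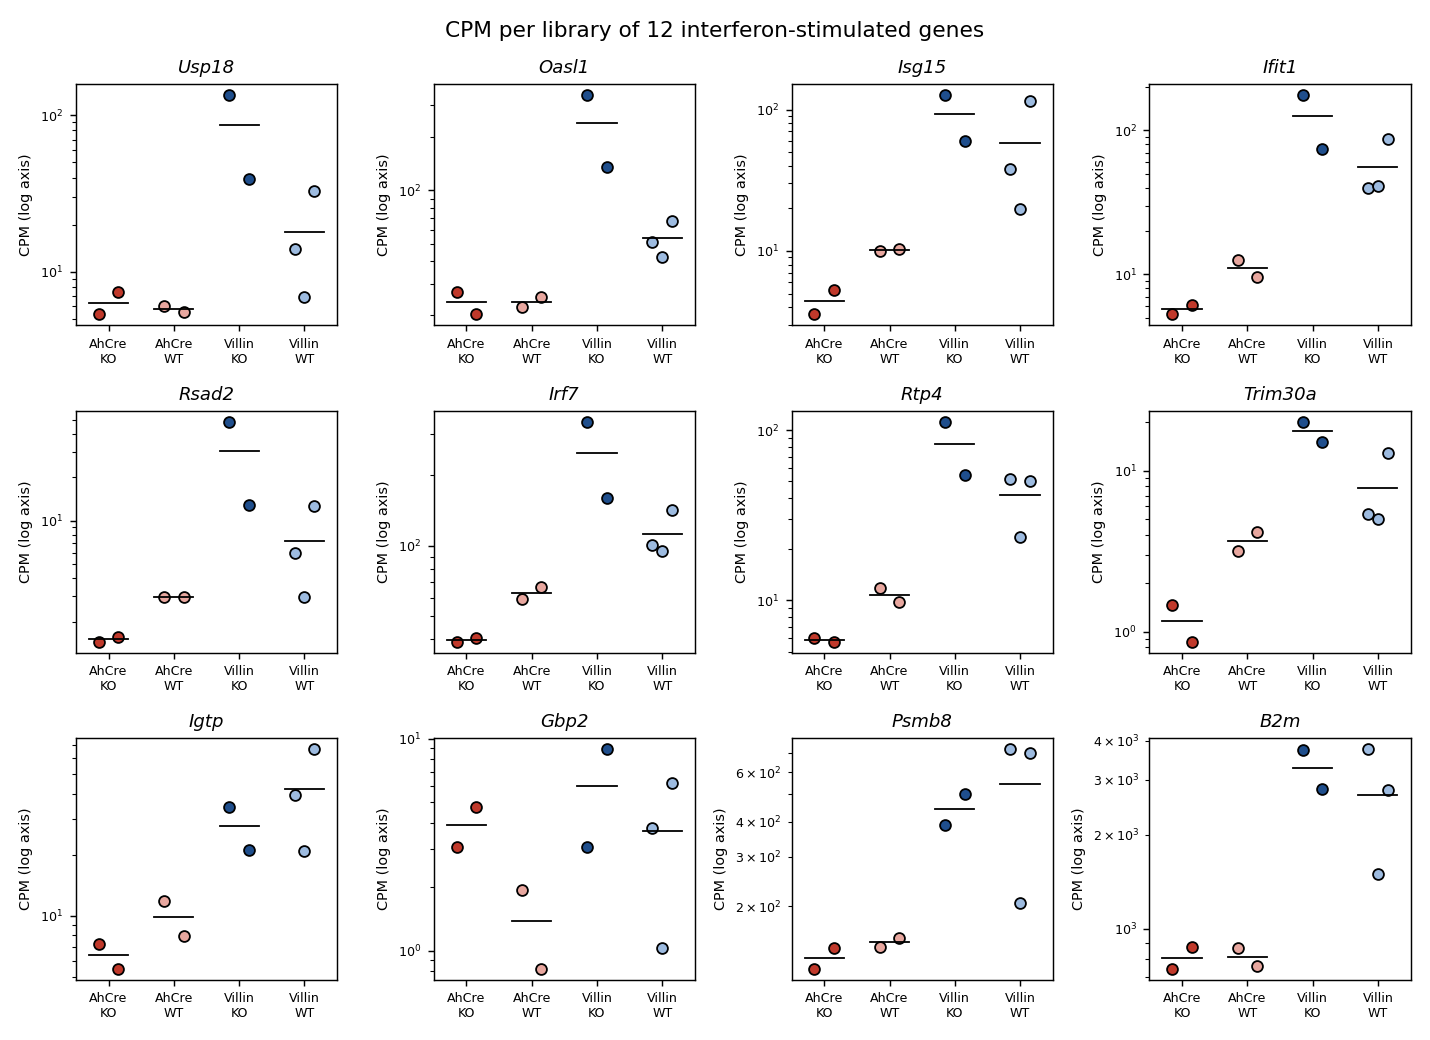
CPM per library, on a log axis, of 12 of the 40 genes; each point is 1 library and each line the mean of its group (AhCre KO, AhCre WT and Villin KO n = 2, Villin WT n = 3). The first Villin KO library is far above the others for Usp18 (136 CPM) and Oasl1 (343 CPM), while Trim30a and Rtp4 have AhCre KO under AhCre WT and Villin KO above Villin WT.

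The GTPases, which attack the vacuoles of intracellular microbes, had log2 fold changes on both sides of 0 in Villin KO: 4 of 7 were above 0, against 41.4% of all genes, and their median was 0.07. Gbp2, a guanylate-binding protein, had the highest log2 fold change of the members in AhCre KO, 1.49 ± 0.78 (SE, edgeR adjusted p = 1). It had 3.07 and 4.77 CPM in AhCre KO, against 1.94 and 0.820 CPM in AhCre WT, and 3.07 and 8.95 CPM in Villin KO, against 3.77, 1.03 and 6.17 CPM in Villin WT. Gbp3 had 10.7 and 6.02 CPM in Villin KO and 1.41 to 4.43 CPM in Villin WT, and 1.37 and 1.65 CPM in AhCre KO and 1.94 and 1.72 CPM in AhCre WT. Igtp, an immunity-related GTPase also called Irgm3, had 34.4 and 21.1 CPM in Villin KO, against 39.7, 20.9 and 66.9 CPM in Villin WT, and 7.28 and 5.46 CPM in AhCre KO, against 11.8 and 7.90 CPM in AhCre WT. Iigp1 was at 0.205 and 2.62 CPM in Villin KO, against 1.26, 0.257 and 1.35 CPM in Villin WT, and 0.566 and 0.867 CPM in AhCre KO, against 1.23 and 0.820 CPM in AhCre WT, or 1 to 19 counts per library. Gbp6, Gbp7 and Irgm1 had log2 fold changes of -0.45 to 0.07 in Villin KO and -1.09 to -0.33 in AhCre KO; Gbp6 shares 70.7% of its 50-base stretches with other genes, mainly Gm43302.

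None of the 4 genes of antigen processing and presentation passed in either knockout. Psmb8 and Psmb9 encode inducible subunits of the immunoproteasome. Psmb8 had 388 and 501 CPM in Villin KO, against 725, 206 and 702 CPM in Villin WT, and 119.7 and 142 CPM in AhCre KO, against 143 and 154 CPM in AhCre WT. Psmb9 had 155 and 236 CPM in Villin KO, against 437, 125 and 485 CPM in Villin WT, and 93.8 and 116 CPM in AhCre KO, against 129.7 and 152 CPM in AhCre WT. In Villin crypts the second wild-type library was low and the other 2 wild-type libraries were high for both genes. B2m, the light chain of MHC class I, had 3743 and 2796 CPM in Villin KO, against 3760.1, 1499.8 and 2770.3 CPM in Villin WT, and 745 and 874 CPM in AhCre KO, against 868 and 758 CPM in AhCre WT. Tap1, a subunit of the peptide transporter, had log2 fold changes of -0.07 in Villin KO and -0.37 in AhCre KO. Exons of Psmb9 and Tap1 overlap on opposite strands by 212 bases, and the library method does not mark strand.

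Per kilobase of exon, B2m had the highest level of the 40 genes in every group, at 3802 CPM per kb in Villin KO, 3112 in Villin WT, 941 in AhCre KO and 945 in AhCre WT. Behind it in Villin WT came Psmb8 at 161 CPM per kb, Psmb9 at 95.3, Isg15 at 76.4, Lgals3bp at 63.8 and Irf1 at 61.6. In AhCre WT the order behind B2m was Lgals3bp at 83.3 CPM per kb, Psmb8 at 43.9, Psmb9 at 38.5 and Irf1 at 35.7, with Isg15 at 13.5. Iigp1 was lowest in Villin WT, at 0.164 CPM per kb.

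The wild-type groups of the driver lines were also set against each other. In AhCre WT against Villin WT 7 members fell and 0 rose (17.5% of the members), next to 7.58% of all genes called in either direction, 3.53% called lower and 4.04% called higher. The log2 fold change was above 0 for 4 members, against 47.1% of all genes, and the median was -0.82, against -0.07 over all genes. Both AhCre WT libraries lay under all 3 Villin WT libraries for 18 members (45%), next to 23.8% of all genes, and above them for 1 member, Lgals3bp, next to 26.5%. Driver, inducer and library set cannot be told apart in this comparison, and it uses the same wild-type libraries as the knockout comparisons.

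The members that fell in AhCre WT came from 4 roles. The log2 fold change was -2.50 ± 0.64 for Isg15 (SE, adjusted p = 0.0381, edgeR quasi-likelihood test with Benjamini-Hochberg adjustment), at 10.01 and 10.4 CPM in AhCre WT and 38.1, 19.9 and 115 CPM in Villin WT. Ifit1 had -2.33 ± 0.47 (edgeR adjusted p = 0.0185), Xaf1 -2.06 ± 0.49 (edgeR adjusted p = 0.0309) and Rtp4 -1.95 ± 0.43 (edgeR adjusted p = 0.0254). All 4 genes had every AhCre WT library under every Villin WT library. Igtp had -2.10 ± 0.48 (edgeR adjusted p = 0.0292), Psmb8 -1.87 ± 0.48 (edgeR adjusted p = 0.0375) and B2m -1.72 ± 0.41 (edgeR adjusted p = 0.0311), also without overlap. Zbp1 had a lower log2 fold change still, -2.54 ± 0.74, and did not pass (edgeR adjusted p = 0.0546), with 1 Villin WT library at 14.4 CPM, under both AhCre WT libraries. Lgals3bp had the highest, 0.39 ± 0.28 (edgeR adjusted p = 0.385). The number called was 0 without the first Villin WT library or either AhCre WT library, 1 without the third Villin WT library or either AhCre KO library, and 13 without the second Villin WT library. The fits with 0 members called 166, 29 and 8 of all genes, those with 1 member called 597, 346 and 365, and the fit with 13 members called 3030 of 16098.

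Members with and without the response element in their promoter window did not stand far apart. The median log2 fold change in Villin KO was 0.76 for the 17 members with it and 0.64 for the 12 without it. In AhCre KO the medians were -0.33 and -0.40, and in AhCre WT against Villin WT they were -1.03 and -0.80, in the same order. Oasl1, which rose in Villin KO, has none of the 4 motifs in its window.

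Markers of other cells were read beside these values, since a bulk library cannot tell fewer cells of a type from less RNA per cell. The summed level of 5 absorptive enterocyte markers was 26140 and 17618 CPM in Villin KO, against 16329, 8837 and 13929 CPM in Villin WT, and 4163 and 4128 CPM in AhCre KO, against 5434 and 4872 CPM in AhCre WT. The sum was therefore higher in Villin KO, lower in AhCre KO and lower in AhCre WT than in Villin WT, each without overlap. These are the directions of the 40 genes, and the part of these cells in the result was not tested. The log2 fold change of each marker had these signs, but not every marker stood apart. Apoa1, the largest part of the sum, overlapped between genotypes in both drivers. Alpi hardly differed between the wild-type groups (log2 fold change -0.0007). The sum of 7 markers of T cells and intraepithelial lymphocytes was 335 and 1775 CPM in Villin KO, against 311, 73.6 and 2057 CPM in Villin WT. It was 225 and 268 CPM in AhCre KO and 270.0 and 268 CPM in AhCre WT. This sum was high in the second Villin KO library and the third Villin WT library and low in the second Villin WT library. Its largest part was Gzma, with 1256 and 1607 CPM in the 2 high libraries. Ptprc differed from the sum, with its highest value, 117 CPM, in the first Villin KO library. It was above wild type in both drivers without overlap, at 59.1 CPM or more in Villin KO and 53.2 CPM or less in Villin WT. Every other marker of this list was highest in the second Villin KO or the third Villin WT library.

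Myeloid markers, 8 in number, summed to 102 and 833 CPM in Villin KO, against 113, 14.5 and 172 CPM in Villin WT, and to 68.3 and 83.3 CPM in AhCre KO, against 143 and 153 CPM in AhCre WT. They were thus lower in AhCre KO without overlap, as the 40 genes were. The 5 B and plasma cell markers summed to 104 and 133 CPM in Villin KO, against 53.0, 6.16 and 214 CPM in Villin WT, and to 31.4 and 36.6 CPM in AhCre KO, against 38.0 and 39.5 CPM in AhCre WT. The 4 tuft cell markers were above wild type in both knockouts, at 1184 and 162 CPM in Villin KO, against 35.2 to 39.3 CPM in Villin WT, and 576 and 493 CPM in AhCre KO, against 98.4 and 107 CPM in AhCre WT. Across the 9 libraries the 3 Paneth markers summed to 965 to 8181 CPM, the 3 goblet markers to 1014 to 3334 CPM and the 3 markers of plasmacytoid dendritic cells to 21.7 to 51.2 CPM. The 6 markers of stroma and endothelium summed to 70.1 and 111.7 CPM in Villin KO, against 43.1, 13.5 and 21.8 CPM in Villin WT, and to 47.7 and 52.9 CPM in AhCre KO, against 110.6 and 119.99 CPM in AhCre WT. That sum was above wild type in Villin KO and under it in AhCre KO without overlap, as the 40 genes were on average, but it was higher in AhCre WT than in Villin WT, where the 40 genes were lower. The collagen genes Col1a1 (log2 fold change 3.39, edgeR adjusted p = 0.00842) and Col3a1 (2.78, edgeR adjusted p = 0.0180) rose in Villin KO. The rest of that list did not pass. Pdgfra, Vim and Pecam1 had log2 fold changes of 1.06 to 1.29, and Acta2 had -0.45. The part of these other cells in the values of the 40 genes was not tested. A marker was at 0 in some library in 3 of the lists (B and plasma cell, plasmacytoid dendritic cell, stroma and endothelium).

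**Figure D4:**
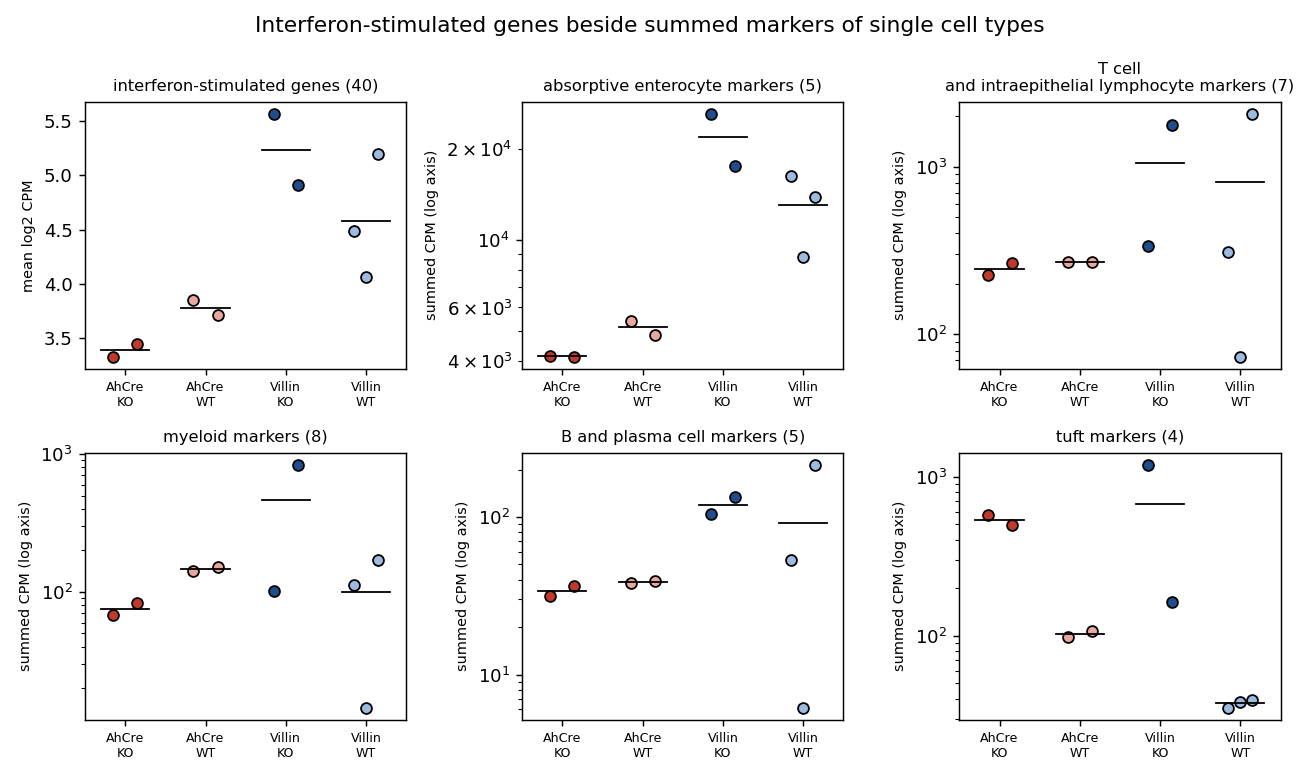
Mean log2 CPM of the 40 genes (first panel) beside the summed CPM of markers of 5 cell types on log axes; each point is 1 library and each line the mean of its group (AhCre KO, AhCre WT and Villin KO n = 2, Villin WT n = 3). The enterocyte sum orders the 4 groups as the 40 genes do, with its highest value, 26140 CPM, in Villin KO and its lowest, 4128 CPM, in AhCre KO, while the lymphocyte sum spreads between 73.6 and 2057 CPM within Villin WT.

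Transcripts of the interferons themselves were at or near 0. Of 10 interferon genes none had enough counts to be tested; the highest was Ifnk with 10 counts in 1 AhCre WT library, and Ifnb1 had 1 count in the first Villin KO library and 6 in 1 AhCre WT library. Ifng had 0 and 4 counts in Villin KO and 1, 0 and 5 counts in Villin WT. At this depth differences in the ligands were not detectable.

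Among 18 tested receptor and proximal signalling genes of 19 listed, 4 rose and 1 fell in Villin KO. Of all tested genes 3.33% were called higher and 2.88% lower in that comparison. Ifnar2, a chain of the type I interferon receptor, had 75.0 and 50.6 CPM in Villin KO, against 32.9, 20.01 and 21.6 CPM in Villin WT (log2 fold change 1.34 ± 0.34 SE, edgeR adjusted p = 0.0420). Il10rb, a chain of the type III receptor shared with other cytokines, had a log2 fold change of 1.17 ± 0.29 (SE, edgeR adjusted p = 0.0358). The partner chains did not pass, with log2 fold changes of 0.41 for Ifnar1 and 0.70 for Ifnlr1 (edgeR adjusted p = 0.371 and 0.320). Ifnlr1 overlapped between the genotypes, at 30.7 and 9.56 CPM in Villin KO and 11.9 to 12.7 CPM in Villin WT. Inhibitors of JAK signalling also rose, Socs3 with 1.67 ± 0.34 (SE, edgeR adjusted p = 0.0188) and the phosphatase gene Ptpn6 with 2.17 ± 0.41 (SE, edgeR adjusted p = 0.0157). Ptpn6 had 335 and 118 CPM in Villin KO, against 43.7, 38.1 and 69.7 CPM in Villin WT; the tuft cell sum given above is higher in the same libraries, and its part in this result was not tested. Irf8 fell, with 56.7 and 75.7 CPM in Villin KO, against 187, 120.3 and 142 CPM in Villin WT (log2 fold change -1.17 ± 0.32 SE, edgeR adjusted p = 0.0469). None of the 18 passed in AhCre KO by edgeR, also at an unadjusted p under 0.05. Jak2 (log2 fold change -1.76) and Socs3 (-1.86) fell in AhCre WT against Villin WT, where 3.53% of all genes were called lower. Ifngr2, Ifngr1 and Jak1, among the 4 genes of this list with the highest CPM, were not called in any comparison.

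Of 14 tested genes of the pathways that sense nucleic acids upstream of interferon, none passed the edgeR test in either knockout. At an unadjusted edgeR p under 0.05, 3 were higher in Villin KO, against 10.7% of all genes. In AhCre KO 1 was lower at that level, against 1.72% of all genes. Tbk1, the kinase that activates IRF3, had 209 and 205 CPM in Villin KO, against 39.2, 85.4 and 121 CPM in Villin WT (edgeR adjusted p = 0.0604), and Mavs, the adaptor of RIG-I and MDA5, had 119.8 and 119 CPM in Villin KO and 35.9 to 76.8 CPM in Villin WT (edgeR adjusted p = 0.0784). Irf3 and Samhd1 were not called either. Tlr9 rose in AhCre WT against Villin WT, at 1.49 and 2.01 CPM against 0.128 to 0.193 CPM, under the floor of a Villin library. In that comparison 4.04% of all genes were called higher.

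A further 52 tested interferon-stimulated genes, of 57 listed, were counted in the same way. In Villin KO 1 rose and 0 fell, next to 3.33% and 2.88% of all genes. The gene that rose was Trim25, the ubiquitin ligase that activates RIG-I, with a log2 fold change of 1.22 ± 0.33 (SE, edgeR adjusted p = 0.0466). The median log2 fold change of the 52 genes was 0.21 in Villin KO, with 33 above 0 (against 41.4% of all genes). It was -0.24 in AhCre KO, with 15 above 0 (against 49.5% of all genes). In AhCre WT against Villin WT 5 fell, namely Ifi35, Parp12, Trim30d, Ube2l6 and Slfn2, next to 3.53% of all genes, and the median was -0.95. Ube2l6, the enzyme that conjugates ISG15, had 48.7 and 46.6 CPM in AhCre WT, against 213, 105 and 199 CPM in Villin WT (log2 fold change -1.85 ± 0.36 SE, edgeR adjusted p = 0.0171). Ifi27, also among the most abundant, was not called in any comparison.

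Of 18 tested MHC genes, 0 rose and 1 fell in Villin KO, next to 3.33% and 2.88% of all genes. The gene that fell was Ciita, the transactivator of MHC class II, with 2.05 and 8.95 CPM in Villin KO, against 30.0, 17.3 and 41.8 CPM in Villin WT (log2 fold change -2.40 ± 0.56 SE, edgeR adjusted p = 0.0318). The class I heavy chains H2-K1 and H2-D1 had log2 fold changes of 0.52 and 0.74 in Villin KO and did not pass. Psme2, an activator subunit of the immunoproteasome, was not called in any comparison. In AhCre WT against Villin WT H2-T23, Psme1, H2-Aa, H2-Ab1 and H2-Eb1 fell, with log2 fold changes of -1.41 (Psme1) to -4.07 (H2-Aa). Of all genes 3.53% were called lower there. No gene of this list passed in AhCre KO by edgeR, also at an unadjusted p under 0.05.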

How the data were processed

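Crypt RNA (2 ng) was made into Smart-seq2 libraries, per the labels' protocols; the method does not mark strand. The authors deposited raw read counts, 1 whole number per gene and library. The tools named in the submitters' processing notes are STAR 2.7, featureCounts and DESeq2 1.20, with builds mm10 and GRCm38; strand setting and annotation were not given in those sources. Gene models came from GENCODE M21.

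Testing was done with edgeR 4.0.16 in R 4.3.3: filterByExpr on the 4 groups (16250 of 55341 genes kept), TMM scaling, and a quasi-likelihood fit of 1 mean per group to all 9 libraries (5 residual degrees of freedom), with Benjamini-Hochberg adjustment over all tested genes at 0.05. SE is the log2 fold change divided by the square root of F. CPM use TMM library sizes; mean log2 CPM uses a prior count of 2. The procedure was tested on simulated data, where the only requirement was that median log2 fold changes came near those set. No limit was put on false calls. Floors cover counting error only.

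Members and lists were chosen with earlier results of these data known. Full values are given for members called in any contrast, those separated the same way in both drivers, and the 3 largest and 3 smallest log2 fold changes of each of 3 contrasts; Dhx58, Irf9, Irf7, Oas3, Oasl2, Gbp3, Ifih1, Irf1, Stat2 and Cmpk2 were added after their values were seen. Alternatives were DESeq2 size factors, other filters, the DESeq2 1.42.0 Wald test, limma-voom (limma 3.58.1), single-driver fits, a replicate block and each library left out. A gene of the receptor and signalling list is not reported here.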

Additional observations from a re-analysis of the deposited data

Results flagged for a closer look

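For 11 genes the knockout libraries lay above all wild-type libraries in Villin crypts and under all wild-type libraries in AhCre crypts, which picked them out for a closer look. This pattern was found in 5.03% of all tested genes, and the reverse order in 4.65%. The 11 genes were picked by these orders, so large differences between the drivers are partly built in. The knockout effect in Villin minus that in AhCre, in log2 units, was 3.07 for Rsad2, 2.82 for Trim30a, 2.32 for Dhx58, 2.18 for Oas3, 2.16 for Ifit3, 2.08 for Oasl2 and 2.07 for Gbp3. It was 1.88 for Rtp4, 1.81 for Irf7, 1.53 for Irf9 and 1.07 for Lgals3bp. None of the 11 passed the edgeR quasi-likelihood test of the difference, with adjusted p between 0.146 (Trim30a) and 0.269 (Gbp3).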

How the results depend on the processing

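Of the 40 members, no called gene reversed its direction under any alternative tried, nor did the mean over the 40; genes of the other lists were not refitted, and the cause of the changes below was not tested. Counts over all genes are in brackets. Members called in Villin KO numbered 6 with DESeq2 size factors (1092), 8 without a low-count filter (1591), 11 with the DESeq2 Wald test (1749), 1 with limma-voom (138) and 4 with a replicate block (300), and 0 to 13 when 1 library was left out. In AhCre KO they numbered 3 with limma-voom (911) and 9 in the fit of that driver alone (1046), and 0 with any library left out. Averaged over drivers they numbered 2 without a filter (538), 1 with the DESeq2 Wald test (438), 1 with the replicate block (137) and 0 to 2 with a library left out. For the difference between drivers they numbered 5 without a filter (340), 7 with the DESeq2 Wald test (380) and 0 to 7 with a library left out (7 without the second Villin KO library, 415). In AhCre WT against Villin WT they numbered 11 with the DESeq2 Wald test (2278), 16 with limma-voom (3860), 0 with the replicate block (6) and 0 to 13 with a library left out. The mean over the 40 genes, taken as a median, gave -0.68 in AhCre KO and -1.29 between the wild-type groups; with a library left out it was 0.34 to 0.97 in Villin KO, -0.46 to -0.32 in AhCre KO and -1.02 to -0.50 between the wild-type groups. DESeq2 size factors moved the median log2 fold change of all genes in Villin KO to -0.08, against -0.18. The replicate numbers are not said to pair the libraries. Same-numbered libraries deviated from their group means with r of -0.11 in AhCre and 0.06 and -0.22 in Villin. In a group of 2 libraries the deviations mirror each other, so these values cannot decide whether the libraries are paired. A block with the AhCre numbers crossed, added after seeing the data, called 1 member in Villin KO (46) and 0 between the wild-type groups. Low counts limit Mx1, Mx2, Gbp6, Iigp1 and all interferon ligands. They also limit Nlrc5, Oas2, Ifit2, Gbp2, Gbp3 and Trim30a, which had 6 to 10 counts in their lowest library.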
